A study of Drosophila melanogaster with 4 samples.

Results

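Slit, the Netrins and their receptors were examined in migrating embryonic cells of Drosophila melanogaster. The set held 8 genes of 14794 in each deposited table, matched by gene symbol: the secreted cues sli, NetA and NetB, and the receptors robo (now named robo1), lea (now robo2), robo3, fra and unc-5. The samples were 4 cell populations isolated by flow cytometry, with 1 library each and no other treatment named in the labels. Caudal visceral mesoderm (CVM) cells from embryos of stages 10 to 13 were set against the non-CVM cells of those stages, and hemocytes (HC) from stages 12 to 16 against the non-hemocytes of those stages. The labels name no strain, driver or reporter for either sort.

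Slit is a large secreted protein that binds Robo receptors and is best known as the repellent that midline glia present to growing axons. Netrins are secreted relatives of the laminins. Frazzled (fra, the fly DCC) carries the attractive response to them and Unc-5 the repulsive one. In the fly embryo the same proteins also act outside the nervous system, on migrating muscle precursors, heart cells, tracheal cells and midgut endoderm.

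The deposited tables give each gene a fold change between a condition q1 and a condition q2, names that are found in no label. Which of them held the sorted cells is therefore not stated, and every fold below is q2 over q1 on the log2 scale, negative where the gene was higher in q1. Markers of the sorted cells were mostly higher in q1. Of 5 caudal visceral mesoderm markers, 4 were called higher in q1 in the authors' deposited table for CVM, with HLH54F at -6.04 and beat-IIb at -7.18, while byn had 0.72 and was not called. Of the 5 measured hemocyte markers, 4 were called higher in q1 in the authors' deposited table for HC, from srp at -3.25 to Pxn at -6.35, while Hml had 1.34 and was not called. The ± after a fold is the standard error implied by the authors' own test statistic. It covers the reads of 2 libraries and no variation between embryos or sorts, so no difference here has a replicate check. A gene was called when the authors' q-value was under 0.05, and measured when they tested it (status OK) and gave a finite fold other than an empty 0. The depth of the libraries is unknown.

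The members' folds lay differently in each table. In CVM, sli was about 2-fold higher in q1, the side of the caudal visceral mesoderm markers, and was the only member called there. In HC the 7 measured members all lay above 0, towards q2, but so did the median of all measured genes, at 0.62. NetB alone was called. The folds of the cues lay below those of the measured receptors in CVM, beyond the error of the difference in 8 of 12 pairs. The pairs share genes and are not independent. In HC, where sli was not measured, NetA and NetB lay above the receptors, but within the error in all 10 pairs.

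**Figure D1:**
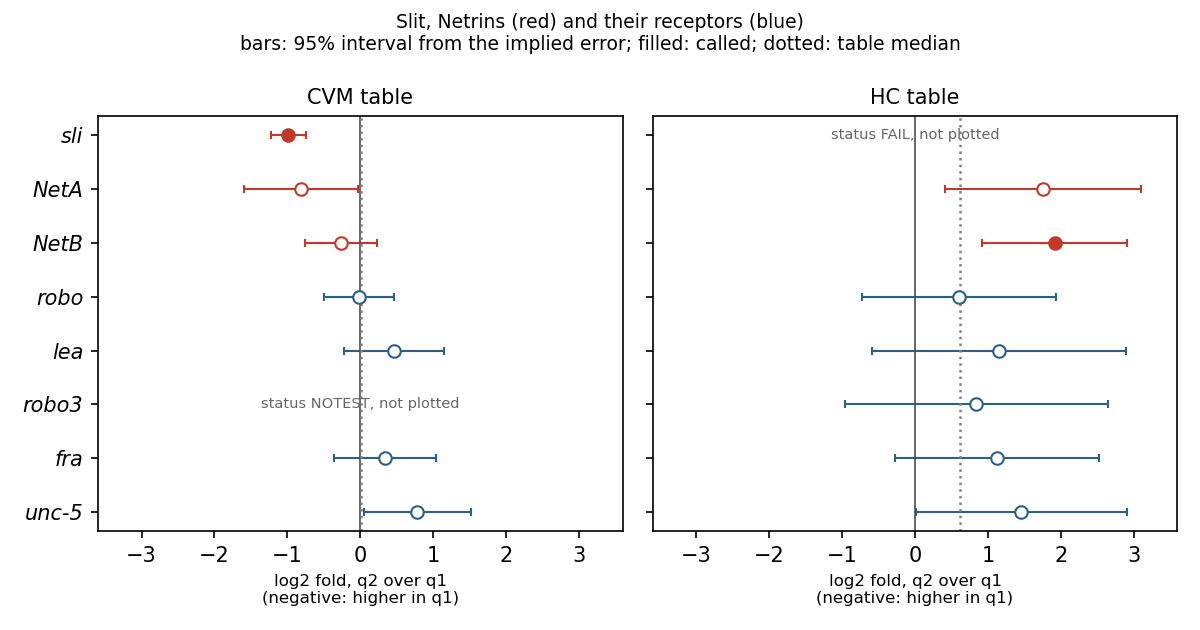
Log2 fold of q2 over q1 (horizontal axis) for the 8 members in the CVM table (left) and the HC table (right), with cues in red and receptors in blue. Bars are 95% intervals from the implied error, filled points were called by the authors and the dotted line is the median of all measured genes. The CVM cues lie left of 0, with sli at -0.99. In HC all measured members lie right of 0, with NetB at 1.91, as does the median of all measured genes at 0.62.

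The cues came first in CVM. The gene sli, encoding Slit (FBgn0003425, chromosome 2R, 11758923 to 11809623, BDGP5), had -0.99 ± 0.12 in the authors' deposited table, 1.98-fold higher in q1, with a q-value of 1.76e-13. Its error was the smallest among the members, so a moderate fold stood far from 0, with a 95% interval of -1.23 to -0.75. Nevertheless 17.8% of all measured genes lay further towards q1. The same locus holds CG33463 and CG33464. The RefSeq gene table for Release 6 lists CG33464 as a former locus tag of sli itself, and it had -1.05 with a q-value of 0.0604 in the authors' deposited table, close to sli.

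NetA, which encodes Netrin-A (FBgn0015773, chromosome X, 14498044 to 14547864), lay in the same direction with a wider error. It had -0.82 ± 0.40 in the authors' deposited table for CVM, 1.76-fold higher in q1, and was not called (p-value 0.0407, q-value 0.242). NetB, encoding the other Netrin (FBgn0015774, chromosome X, 14581644 to 14643407), had -0.27 ± 0.25 and a q-value of 0.728 in the authors' deposited table, an interval that spans 0.

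Among the receptors in CVM, none was called. The gene robo encodes the Robo1 receptor, which keeps axons from recrossing the midline (FBgn0005631, chromosome 2R, 18580028 to 18588467), and it was nearest to 0, at -0.02 ± 0.25 in the authors' deposited table (q-value 0.993). The 95% interval of robo, -0.50 to 0.47, leaves out a 2-fold difference in either direction between these libraries. The Robo2 gene lea, whose product sets lateral axon position and also acts in muscle, heart and trachea (FBgn0002543, chromosome 2L, 1380085 to 1420449), had 0.46 ± 0.35 in the authors' deposited table (q-value 0.598).

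The Netrin receptors lay towards q2 in CVM. The value for fra (FBgn0011592, chromosome 2R, 8416560 to 8451691) was 0.34 ± 0.36 in the authors' deposited table, with a q-value of 0.778. The value for unc-5 (FBgn0034013, chromosome 2R, 11237658 to 11259021) was 0.78 ± 0.37, the highest of the members in CVM, with a p-value of 0.0349 and a q-value of 0.221 in the authors' deposited table. Of all measured genes, 8.24% lay at least as far towards q2 as unc-5. Robo3, the third Robo receptor (FBgn0041097, chromosome 2L, 1256825 to 1293835), carried the status NOTEST, which Cuffdiff gives where too few reads align, and its listed fold of -0.64 ± 1.10 in the authors' deposited table was not counted as measured.

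In CVM, 1 of the 7 measured members was thus called higher in q1, where the authors' deposited table called 8.23% of all tested genes, and 0 were called higher in q2, where it called 0.728%. By q-values adjusted anew with the Benjamini-Hochberg method the calls were also 1 and 0. Of the 7, 3 had an unadjusted p-value under 0.05, sli and NetA towards q1 and unc-5 towards q2. The share of all genes under that threshold was not computed, so nothing can be read from this count. No measured member reached 2-fold in either direction, against 17.6% of measured genes towards q1 and 4.58% towards q2. With 7 members, the counts of calls and of 2-fold differences do not stand apart from the shares of the whole table.

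The HC table gave another picture. NetB had 1.91 ± 0.51 in the authors' deposited table for HC, 3.77-fold higher in q2, with a q-value of 0.00323. NetA had 1.76 ± 0.69 in the authors' deposited table, 3.39-fold higher in q2, and with a q-value of 0.0671 it was not called. NetB and NetA lay above 91.3% and 87.6% of all measured genes. For sli the status was FAIL in the authors' deposited table for HC, as for both other genes of its locus, so Slit was not measured there. FAIL marks a locus where Cuffdiff's calculation did not finish, and 322 genes carried it in HC against 39 in CVM.

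All 5 receptors were measured in HC and none was called. In the authors' deposited table unc-5 had 1.46 ± 0.74 (q-value 0.162), lea 1.15 ± 0.89 (0.376), fra 1.13 ± 0.71 (0.273), robo3 0.84 ± 0.92 (0.553) and robo 0.60 ± 0.68 (0.572). Among the receptors only unc-5 had a 95% interval above 0, from 0.02 to 2.90. All measured HC genes had a median of 0.62, so robo sat at the middle of them, and relative to that median it turned to -0.02. Relative to the same median the other measured members stayed positive, the lowest being robo3 at 0.22, with NetA at 1.14. Only the 95% interval of NetB, 0.92 to 2.91, lay wholly above that median. The intervals of all other measured members included it, that of NetA starting at 0.42 and that of unc-5 at 0.02.

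In HC, 1 of 7 measured members was called higher in q2, where the authors' deposited table called 6.85% of tested genes, and 0 higher in q1, where it called 5.75%. An unadjusted p-value under 0.05 was found for 3 of the 7, NetA, NetB and unc-5, again with no share of all genes computed beside it. At least 2-fold higher in q2 were 5 of the 7, namely NetA, NetB, lea, fra and unc-5, against 35.4% of all measured genes. None was 2-fold higher in q1, against 13.3% of measured genes. Only NetA and NetB were still 2-fold from the table median after centring.

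Cues and receptors were then set against each other within each table. In CVM the median of the 3 cues was -0.82 and that of the 4 measured receptors 0.40, beside a median of 0.00 (0.0047) for all genes. All 12 pairs of a cue and a measured receptor had the cue lower, with a cue minus receptor difference between -1.77 and -0.25 log2 units. The receptor robo3 was not measured in CVM and was left out, and its listed fold of -0.64 ± 1.10 lay on the side of the cues. The pairs reuse the same 3 cues and 4 receptors, so they are not independent. The 95% interval of the difference left out 0 in 8 of the 12 pairs. These included sli against each receptor, the widest being sli minus unc-5 at -1.77 ± 0.39, and NetA against lea, fra and unc-5. NetB differed beyond its error from unc-5 alone, by -1.05 ± 0.45.

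In HC the median of NetA and NetB was 1.84 and that of the 5 receptors 1.13, beside 0.62 for all genes. The cue was the higher in all 10 pairs, which likewise share genes, by 0.30 to 1.31 log2 units. None of the 10 intervals left out 0. The largest difference, NetB minus robo, was 1.31 ± 0.85. In neither table did any member differ from its neighbour in the order of folds beyond the error of their difference (0 of 6 neighbouring pairs in each).

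Between the tables, which share no library, the Netrins moved most. The HC fold minus the CVM fold was 2.58 ± 0.79 for NetA and 2.18 ± 0.57 for NetB, with 95% intervals of 1.02 to 4.13 and 1.07 to 3.29. The 4 receptors measured in both differed less, by 0.62 for robo, 0.69 for lea, 0.79 for fra and 0.68 for unc-5, each with an interval that spans 0. The median difference over the 8927 genes measured in both tables was 0.65, so the receptors moved about as much as a typical gene. As large a difference as that of NetA was seen in 7.45% of these genes, and as large as that of NetB in 9.76%. Folds below 0 in CVM and above 0 in HC occurred in 26.3% of them. Stages differ between the tables as well as cell types, and these cannot be told apart.

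**Figure D2:**
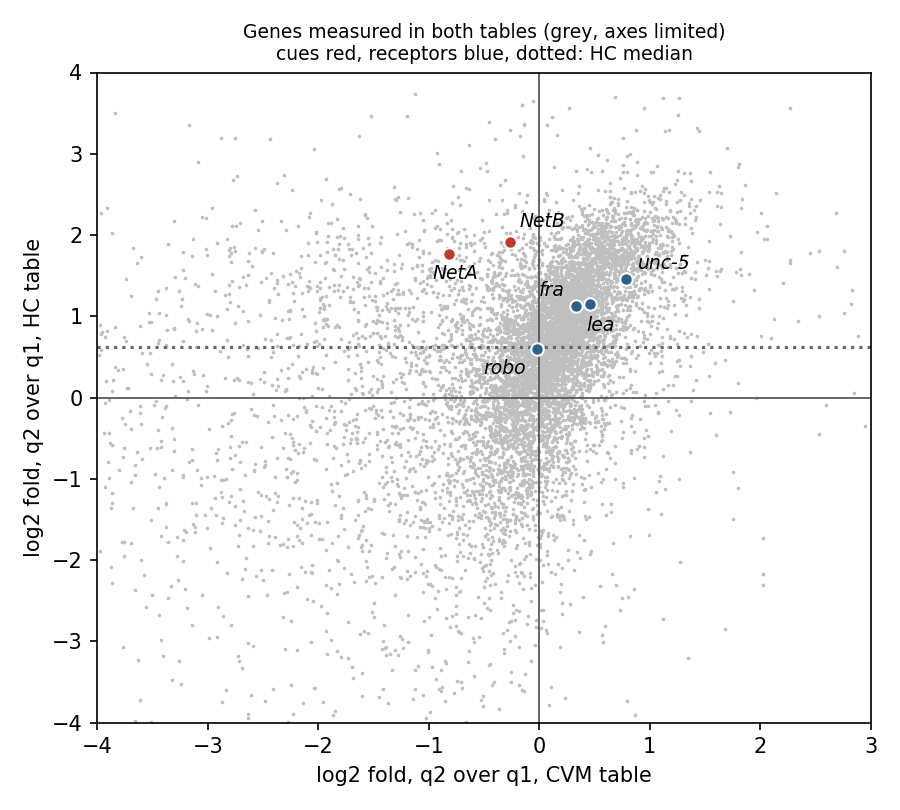
Log2 fold of q2 over q1 in the CVM table (horizontal axis) against that in the HC table (vertical axis), 1 point per gene for the 8927 genes measured in both, drawn within the limits of the axes. The receptors (blue) follow the bulk of genes, while NetA and NetB (red) lie at negative CVM folds (-0.82 and -0.27) and positive HC folds (1.76 and 1.91).

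Some of the paralogs lie close together in the genome, while robo lies on chromosome 2R, away from robo3 and lea. NetA and NetB are 33.8 kb apart on chromosome X in the files' coordinates, with CG5321 between them. CG5321 had -2.12 ± 1.10 in CVM, on the same side as NetA and NetB, and -0.62 ± 0.84 in HC, on the other side, and was called in neither in the authors' deposited table. The genes robo3 and lea are 86.2 kb apart on chromosome 2L with 12 genes between them, of which 2 were measured in each table. One of these, the lipocalin gene NLaz, was called higher in q1 of CVM at -5.01 in the authors' deposited table. NetB shares its locus with CG32595, fra with CG30056 and CG33752, and unc-5 with Pms2, so reads there may have been divided between genes. Pms2 had 0.72 in CVM and 1.54 in HC in the authors' deposited table, near the values of unc-5. The genes whose pair of folds lay nearest to that of NetB, among 4226 other named genes, were the serpin gene Spn43Aa (-0.32 in CVM and 1.87 in HC, 0.07 log2 units away) and RhoGEF3 (-0.35 and 1.91, 0.08 away) in the authors' deposited table. For sli no such neighbour can be given, since its HC fold is missing.

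Of 34 partner genes that sort, assist, transmit or regulate these receptors, all 34 were measured in CVM and 33 in HC. The authors' deposited table for CVM called 10 of them, 6 towards q1 and 4 towards q2, where it called 8.23% and 0.728% of all tested genes, around a list median of -0.18. The authors' deposited table for HC called 4, 1 towards q1 and 3 towards q2, where it called 5.75% and 6.85% of all tested genes, around a list median of 0.36, which lies below the 0.62 of all genes. The genes comm3, kuz, dally, Lar, ena, trio, capt, cno and Trim9 share their loci with other genes, so the division of reads there is uncertain.

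Robo sorting and cleavage genes gave 1 call in 5 in CVM and 0 in HC. It was comm3, a relative of commissureless, which had -3.23 ± 0.80 in the authors' deposited table for CVM. For its part comm, which keeps Robo off the surface of crossing axons, had 0.34 there and comm2 0.61, neither called. In HC comm, comm2 and comm3 had 1.49, 1.11 and 1.21, none of these called in the authors' deposited table. The protease gene kuz, whose product cleaves Robo, had -0.15 in CVM and -0.87 in HC in the authors' deposited table, neither called.

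Among 7 co-receptors and other receptors, Dg (dystroglycan, a matrix receptor whose mouse counterpart binds Slit) was called higher in q1 of CVM at -1.07 ± 0.29, and Dscam, a receptor for Netrin in the fly, was called higher in q2 at 0.55 ± 0.06 in the authors' deposited table. The heparan sulfate proteoglycan Sdc, a Slit co-receptor, had -0.26 and was not called in CVM, and like sli it had the status FAIL in the authors' deposited table for HC. The glypicans dally and dlp had 1.69 and 1.70 in HC with q-values of 0.0799 and 0.0825 in the authors' deposited table.

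Of the 15 signalling genes, 13 lay below 0 in CVM, where the median of all measured genes was 0.0047. Several were near 0, such as Sos at -0.01 and dock at -0.13, and only 2 were called towards q1 and 1 towards q2. Called higher in q1 there were the profilin gene chic at -1.04 ± 0.22 and the tyrosine kinase gene Abl at -1.03 ± 0.29 in the authors' deposited table, and cno, the canoe scaffold gene, was called higher in q2 at 0.61 ± 0.20. The actin regulator capt had -1.12 with a q-value of 0.0764 in the authors' deposited table. In HC the signalling genes had a median of -0.74, below that table's median, with 8 of 15 below 0 and 7 above 0. Of the 15, 2 lay above the table median. They ran from Rac2 at -1.58 to Trim9 at 1.24 in the authors' deposited table, with chic at -1.53 and trio at -1.18. None of the 15 was called there.

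Transcription factors that act on members in fly neurons or midline cells gave 4 calls in 7 in each table. The homeobox gene eve, which with grn and zfh1 promotes unc-5 in motor neurons, had -4.16 ± 0.61 and zfh1 -2.31 ± 0.35, both called higher in q1 of the authors' deposited table for CVM. The Islet gene tup, an activator of fra, had 1.27 ± 0.27 and the GATA gene grn 1.24 ± 0.32 in the authors' deposited table for CVM, both called higher in q2. The midline regulator sim, upstream of sli, was called at 2.45 ± 0.58, the Nkx6 gene HGTX at 2.40 ± 0.57 and tup at 1.65 ± 0.52, all higher in q2 of the authors' deposited table for HC. The gene zfh1 was called higher in q1 at -2.41 ± 0.75 in the authors' deposited table for HC, while eve had 1.96 and was not called. In CVM, sim had 1.07 in the authors' deposited table, on the side opposite to sli, and was not called (q-value 0.119).

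**Figure D3:**
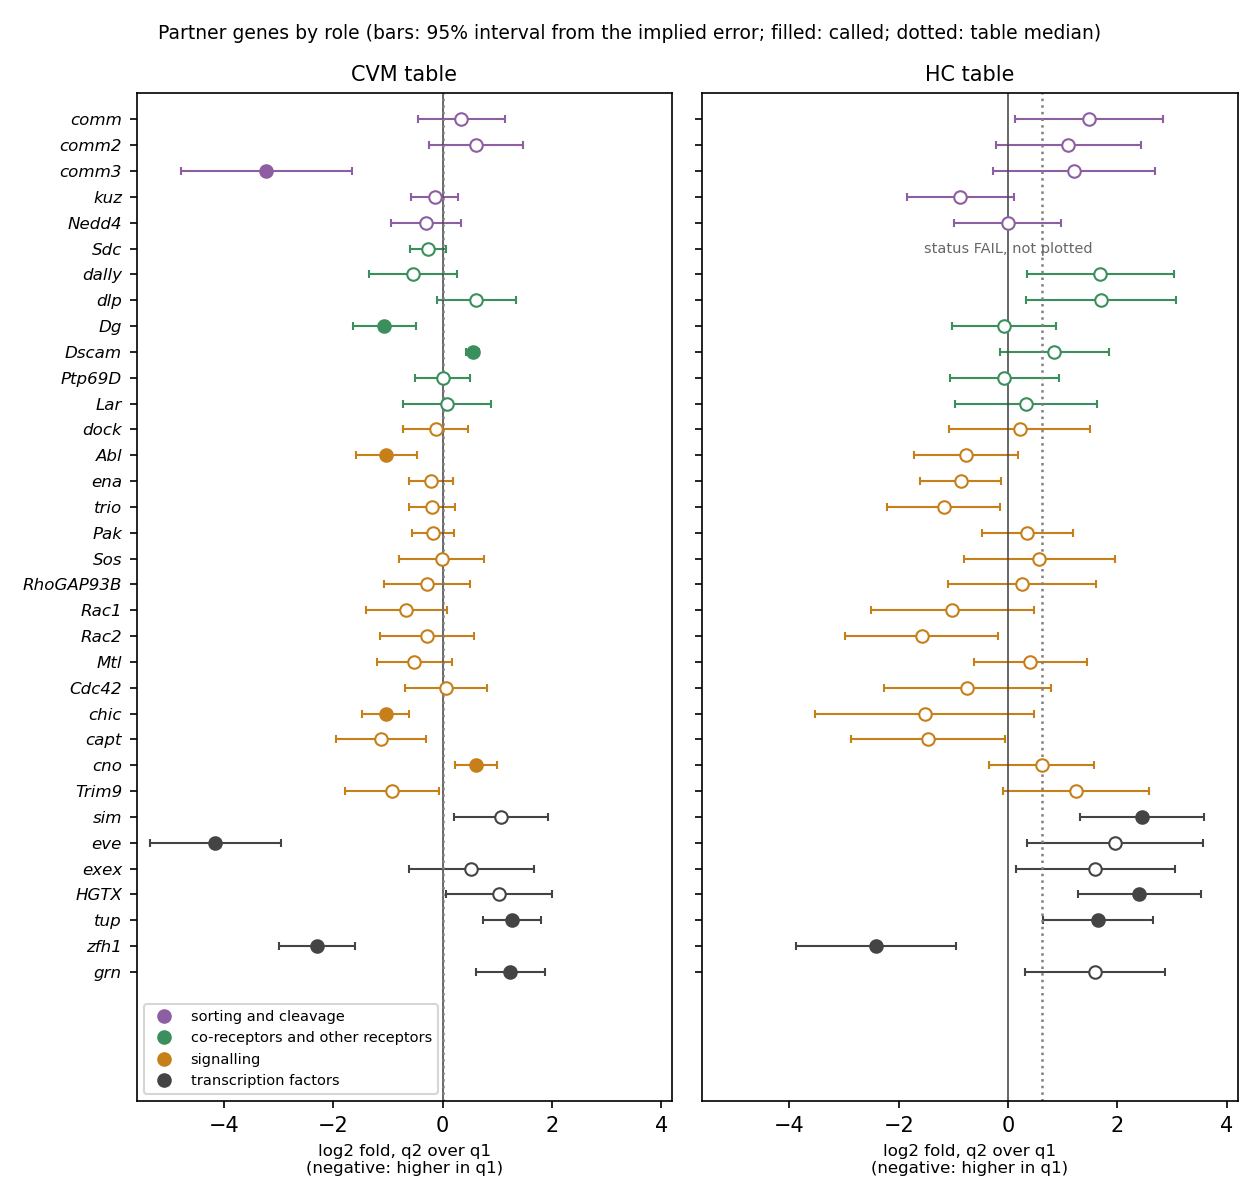
Log2 fold of q2 over q1 (horizontal axis) for the 34 partner genes, coloured by role, in the CVM table (left) and the HC table (right). Bars are 95% intervals from the implied error and filled points were called. The called genes of the CVM table include eve at -4.16 and comm3 at -3.23, and those of HC are sim, HGTX, tup and zfh1.

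Markers of tissues known to make or sense these cues varied with the same contrasts. Midline glial markers (4 measured, sim among them) had folds of 0.41 to 1.07 in CVM, none called, on the side opposite to sli. Somatic muscle and heart markers gave 2 of 4 and 2 of 5 called higher in q1 of CVM in the authors' deposited table, led by Mhc at -5.73 and Doc2 at -2.09. Others on these lists lay towards q2 there and were not called, nau at 1.23, tin at 0.83 and svp at 0.45 in the authors' deposited table. In CVM 3 of the 5 measured hemocyte markers were also called higher in q1. Of 4 trunk visceral mesoderm markers, bin was called higher in q1 of CVM at -2.29, while 3 lay towards q2 and were not called. In HC, neuronal markers lay at 0.70 to 1.87 (2 of 5 called) and heart markers at 1.96 to 2.53 (4 of 5 called). Trunk visceral mesoderm markers lay at 1.84 to 2.86 (3 of 4 called) in the authors' deposited table. These lists lay wholly towards q2, the side of NetA and NetB, but the whole HC table was shifted that way, with a median of 0.62. Other lists were mixed there. Midline glial markers ran from -0.21 (wrapper) to 2.45 (sim), with 2 of 4 called higher in q2. Among other glial markers, moody was called higher in q1 at -2.92 and repo higher in q2 at 2.10. The glial gene loco had -1.27 and was not called. Somatic muscle markers ran from 0.13 (Mhc) to 2.63 (nau), with 2 of 4 called higher in q2 in the authors' deposited table. The part of these tissues in the members' folds was not tested. In such pools, fewer cells of a type and less RNA per cell cannot be told apart.

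**Figure D4:**
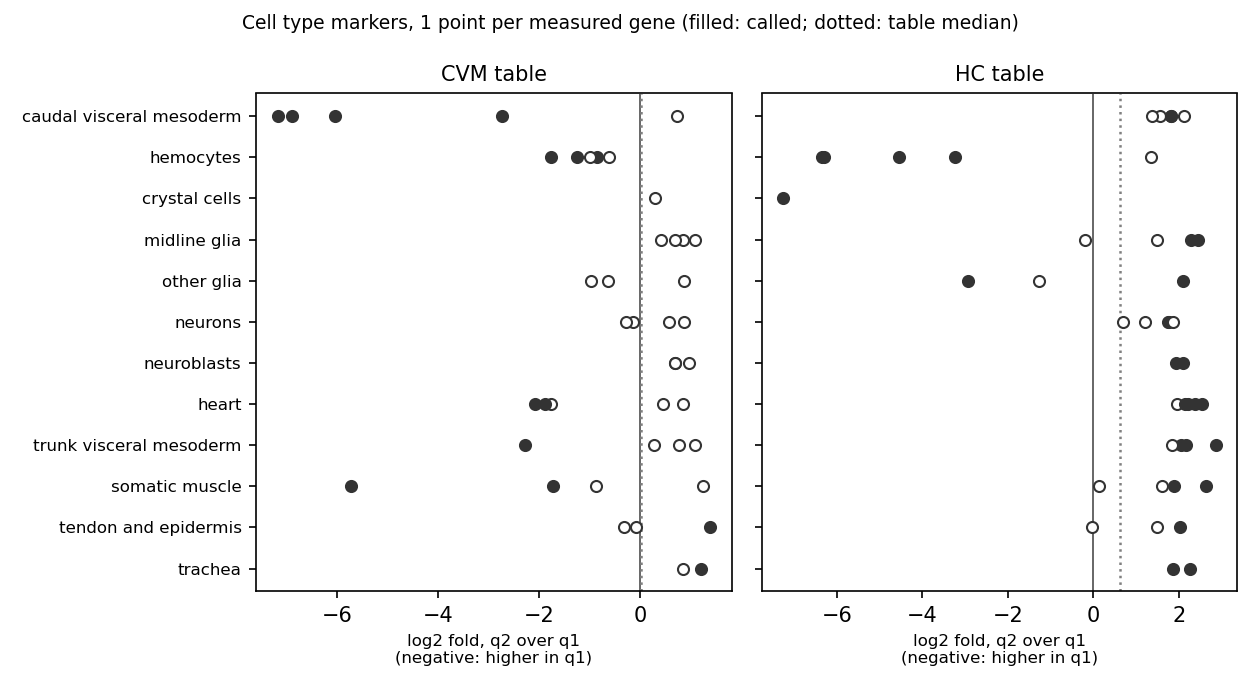
Log2 fold of q2 over q1 (horizontal axis) for each measured marker gene of 12 cell types in the CVM table (left) and the HC table (right), filled where called. Caudal visceral mesoderm markers reach -7.18 in CVM and hemocyte markers -6.35 in HC, and heart markers lie at 1.96 or above in HC.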

How the data were processed

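RNA of 4 sorted populations was sequenced, with 1 library each. Cufflinks 1.3.0, Cuffdiff, TopHat 1.3.3 and Bowtie 0.12.7 were used on the build BDGP5, per the submitters' processing notes, while annotation release and depth are unknown here. The 2 deposited tables give, per the file headers, the fold on the log2 scale (CVM) and on the natural log scale (HC, divided by the natural log of 2), the authors' test statistic as a score, and the p-value and q-value. In HC 568 q-values exceeded 1, so that deposited column was read as a score. Another 4 columns of levels per condition carried names in no label and were not used.

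The implied standard error is the size of the log2 fold over the size of the statistic, and intervals are 1.96 times it. The statistic had the sign opposite to the fold in every measured gene of CVM and of HC. Directions were read from the fold alone. In both tables the authors' p-values equalled the normal p of the statistic within 0.001. Measured were 9580 of 10026 genes of status OK in CVM and 10088 of 10749 in HC, leaving out infinite folds and, in HC, 316 genes with fold and statistic at 0. Errors of differences assume independent genes.

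The members, partners and markers were chosen with earlier results of these data known. Of the partner list, genes the authors called are named, besides others given as examples after their values were seen. Of the marker symbols 1 had no match. No test over samples was possible with 1 library each. The adjustment of p-values was tested on simulated data. The work used Python 3.11.15, pandas 2.3.3, numpy 2.4.6 and scipy 1.17.1.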

Additional observations from a re-analysis of the deposited data

Results flagged for a closer look

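Members with folds of opposite sign in the tables were picked out, and the difference was not tested, since each population had 1 library. NetA differed by 2.58 log2 units (1.76 in HC and -0.82 in CVM) and NetB by 2.18 (1.91 and -0.27). The difference for robo was 0.62 (0.60 and -0.02), within its error and near the 0.65 of a typical gene. Opposite signs occurred in 33.1% of all genes measured in both tables, and in 3 of the 6 members so measured. The labels do not say whether q1 stands for the same kind of population in each table, though most markers of the sorted cells were higher in q1 in both.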

How the results depend on the processing

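Of 46 recomputed values, 41 stayed within their error or within 1.5 times the count, and no called fold changed sign. Many of them could hardly move, so the count of 41 is no measure of robustness. Centring shifted the CVM folds by only 0.0047. The q-values adjusted anew were nearly equal to the authors' own for members and partners. In HC, centring shifted the folds by 0.62, which left every measured member within its wide 95% interval. With a size rule of 1.5-fold, 3 members in place of 0 passed in CVM (sli, NetA and unc-5). In HC, 2 members in place of 1 were called at a q-value under 0.1, the second being NetA. At 3-fold 2 members in place of 5 passed in HC, and likewise 2 after centring on the table median. Of the partners called in HC, 2 in place of 4 had a q-value under 0.01. The uncalled fold of robo in HC did change sign with centring, to -0.02 from 0.60, a shift within its error. The values did not contradict the log base in the headers, so no other base was run. With 1 library per population, no replicate could be left out.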
